A study of Mus musculus with 16 samples.

Results

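The Hedgehog pathway was represented by 9 genes: the ligand Shh, the receptors and co-receptors Ptch1, Boc and Gas1, the transducer Smo, the transcription factors Gli1, Gli2 and Gli3, and the decoy receptor Hhip. The platform annotation gave 24 of the 45101 probe sets on the array to one of these genes alone, and all of them are accounted for here. Gene expression was measured on one-colour Affymetrix arrays in palate tissue of C57BL/6J mouse embryos, as log2 expression values made by GCRMA. Mutants were Erk2 fl/fl; Wnt1-Cre, in which a Cre recombinase active in the neural crest deletes the floxed gene of the kinase ERK2, and there were 3 arrays of mutants at E13.5 and 5 at E14.5. Controls were Erk2 fl/fl by the genotype label and the design text, which name no Cre for them, with 3 arrays at E13.5 and 5 at E14.5. Their titles and source names call the same samples wild-type, while by genotype label both groups carried the floxed alleles. The E14.5 arrays bear a batch label in both genotypes, with 2 arrays per genotype in batch 1 and 3 in batch 2. Cells that do not descend from the neural crest, such as the oral epithelium, are outside the reach of this Cre driver. Whether one array held one embryo or several is not in the labels, so a p-value speaks of the spread between arrays, which may be technical.

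Hedgehog ligands bind Patched receptors, which otherwise keep the membrane protein Smoothened inactive. Active Smoothened acts at the primary cilium and converts the GLI factors into activators, and Ptch1, Gli1 and Hhip are themselves direct targets, so that their transcripts serve as readouts of the pathway. In the mouse palate Shh is made by the oral epithelium, above all in the ridges called rugae, and the mesenchyme beneath responds.

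No Hedgehog gene passed the test between genotypes at either stage. The smallest p-values were those of Shh, which averaged 7.76 ± 0.09 in E14.5 mutants and 7.51 ± 0.18 in E14.5 controls (SD, n = 5 each), and of Ptch1 at both stages, which at E13.5 averaged 9.82 ± 0.08 in mutants and 10.03 ± 0.03 in controls (SD, n = 3 each). Genes were compared with one limma fit over all 16 arrays and 11116 genes, each gene read from its brightest probe set on average, and a gene passed at a Benjamini-Hochberg adjusted p under 0.05. Of the 9 genes, 0 passed at E13.5, where 0.099% of all genes did, and 0 passed at E14.5, where 2.63% did. At an unadjusted p under 0.05 in the same fit there was 1 of 9 at E13.5 (Ptch1), against 9.54% of all genes, and there were 2 of 9 at E14.5 (Shh and Ptch1), against 17.3% of all genes. The fits with array weights and with a trended, robust variance also called 0 of 9 at both stages. At E13.5, 7 of 9 differences lay below 0, with a median of -0.11 where that of all genes was -0.04 and 7612 of the 11116 genes lay below 0. At E14.5, 7 of 9 lay below 0 again, with a median of -0.02 where that of all genes was 0.01 and 4890 of the 11116 genes lay below 0. In simulated data of the same size, 43.3% of 1.25-fold changes were recovered at E13.5 and 58.2% at E14.5. The simulation called 150 genes at E13.5, against 11 in the data, and the adjusted cut-off is stricter when fewer genes pass. Its E13.5 share is therefore probably too high for these data.

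**Figure D1:**
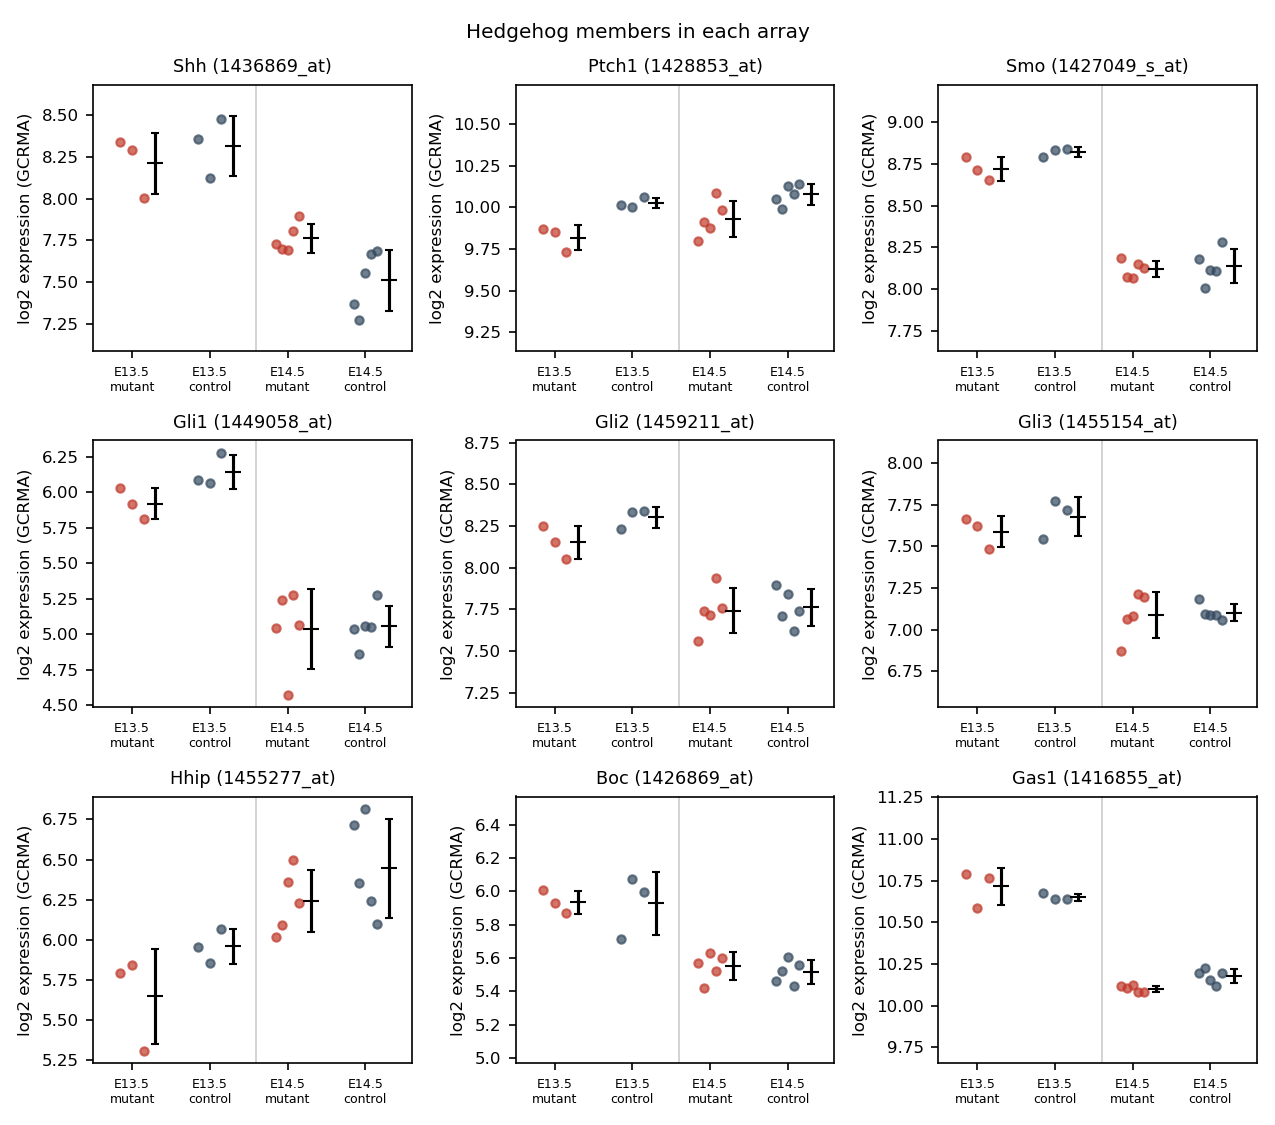
Log2 expression (vertical axis) of the 9 Hedgehog genes on each array, by stage and genotype, for the probe set with the highest mean of each gene. Points are arrays, and the tick with its bar beside them is the mean ± SD of the group; each panel has its own scale. Shh lies at 7.69 to 7.89 in E14.5 mutants and 7.27 to 7.69 in E14.5 controls, and Ptch1 at 9.73 to 9.87 in E13.5 mutants and 10.00 to 10.06 in E13.5 controls.

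The source names call every sample palate mesenchyme, and the arrays held markers of mesenchyme and of oral epithelium. All 10 palatal mesenchyme markers, among them Prrx1, Msx1, Shox2 and Pax9, passed the filter on low values (at least 3 arrays at a log2 value of 4 or more), with group means of the list of 8.67 in E13.5 mutants, 8.81 in E13.5 controls, 8.04 in E14.5 mutants and 8.05 in E14.5 controls. The 17 annotated oral epithelium markers passed too, so the dissected tissue held epithelium as well as mesenchyme. Arrays of one group correlated at 0.993 to 0.997. Xist was above the Y-linked genes on 3 of 3 mutant and 3 of 3 control arrays at E13.5, and on 3 of 5 mutant and 1 of 5 control arrays at E14.5, so these counts differed between stages and between the E14.5 genotypes. The level of Erk2 was not analysed here. The sources used here do not state whether the stages were normalized together, and the array medians lay at 3.39 to 3.44 at E13.5 and at 1.63 to 1.66 at E14.5.

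Shh, the ligand, was measured by probe set 1436869_at, since 1427571_at lay at 0.60 to 1.61 on all arrays and did not pass the filter. At E13.5 it read 8.34, 8.29 and 8.003 in mutants, against 8.36, 8.12 and 8.48 in controls, and the groups overlapped. The log2 difference was -0.11 ± 0.10 (moderated SE, adjusted p = 0.791, limma), with a 95% interval of -0.33 to 0.12. At E14.5 it read 7.73, 7.70, 7.69, 7.81 and 7.89 in mutants, against 7.37, 7.27, 7.55, 7.67 and 7.69 in controls. All 5 mutants lay above all 5 controls, though the lowest mutant and the highest control were only 7.690 and 7.686. The difference was 0.25 ± 0.08, or 1.19-fold (adjusted p = 0.115, limma), with an interval of 0.08 to 0.43. Of all genes, 2.53% had every E14.5 mutant above every control. In batch 1 the mean of Shh was 7.71 in mutants and 7.32 in controls, and in batch 2 it was 7.80 in mutants and 7.64 in controls, so the direction was the same in each batch. The effect at E14.5 minus that at E13.5 was 0.36 ± 0.13 for Shh (adjusted p = 0.366, limma), which did not pass. None of the 9 genes passed in this comparison of effects, where 0.117% of all genes did, and 1 of 9 (Shh) had an unadjusted p under 0.05, against 10.4% of all genes.

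Epithelial markers moved beside Shh at E14.5. Of 17 oral epithelium markers tested, 11 rose in E14.5 mutants, where 1.48% of all genes did, and 6 did not pass. The list mean per array spanned 7.58 to 7.90 in mutants, all above the 7.19 to 7.31 of controls. Some E14.5 group means in the list lay under the filter's level of 4. They were those of Grhl3 (3.46 in mutants, 3.00 in controls) and, in controls alone, Pkp3 (3.79) and Ly6d (3.94). Ly6d lay under 4 on average at E13.5 too (3.69 in mutants, 3.73 in controls), and only its E14.5 mutant mean (5.25) lay above. Its passing of the filter thus leaned on the group where it was high, and nothing is read from its rise. It is counted among the 17 and enters the list mean. At E13.5 none of the 17 passed, and the mean was 7.13 to 7.29 in mutants and 7.18 to 7.39 in controls. Taken relative to that mean on the same array, Shh at E14.5 stood at 0.047 ± 0.073 in mutants and 0.26 ± 0.18 in controls (log2, SD, n = 5 each, exact permutation p = 0.0556, two-sided, smallest possible 0.00794). The relative value differed by -0.22, mutants minus controls, and the groups overlapped. The permutation did not keep to batches, and the difference came mostly from batch 2. Controls of batch 1 read 7.37 and 7.27 for Shh, beside list means of 7.24 and 7.25. Controls of batch 2 read 7.55, 7.67 and 7.69 for Shh, beside list means of 7.19, 7.31 and 7.24. The relative values of E14.5 mutants spanned -0.048 to 0.12 over both batches. The E13.5 mutants stood at 0.99 ± 0.10 and the E13.5 controls at 1.04 ± 0.17 (SD, n = 3 each, exact permutation p = 0.6, two-sided, smallest possible 0.1). In bulk tissue, fewer cells of a type and less RNA per cell cannot be told apart.

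**Figure D2:**
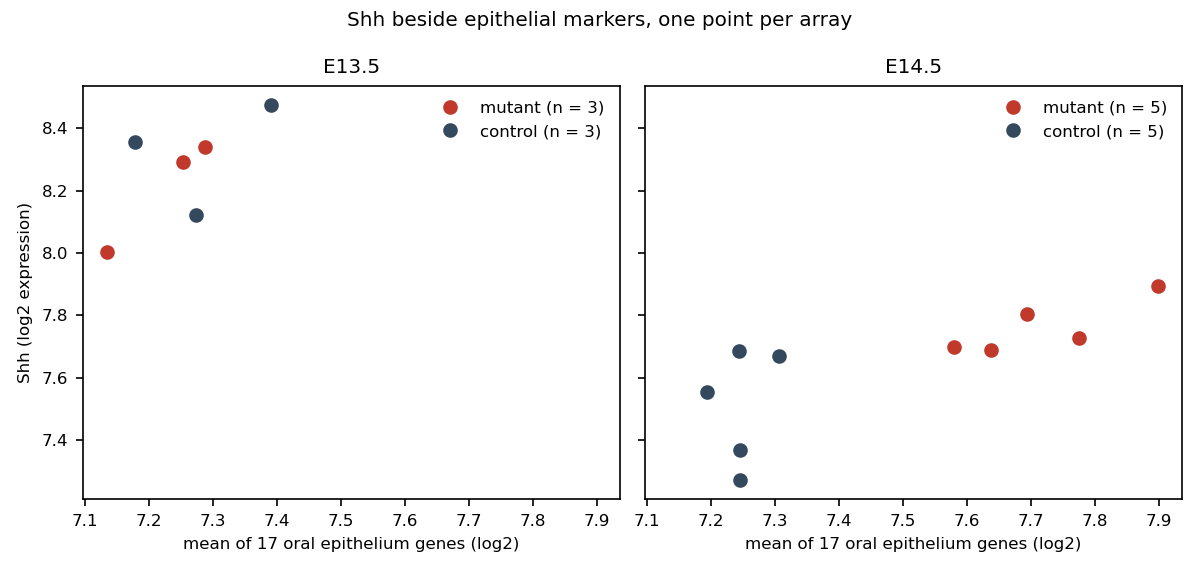
Log2 expression of Shh (vertical axis) against the mean log2 expression of 17 oral epithelium markers (horizontal axis), 1 point per array, at E13.5 (left) and E14.5 (right). At E14.5 the mutants lie at 7.58 to 7.90 on the epithelial axis and the controls at 7.19 to 7.31, while on the Shh axis the groups nearly touch.

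Ptch1, the receptor and a direct GLI target, was the member with the smallest p at E13.5. Probe set 1428853_at read 9.87, 9.85 and 9.73 in mutants, against 10.01, 10.00 and 10.06 in controls, and the groups did not overlap. The difference was -0.21 ± 0.06, or 0.866 times the control level (adjusted p = 0.293, limma). Its interval ran from -0.33 to -0.08, and 8.58% of all genes had a more negative difference. At E14.5 it read 9.80, 9.91, 9.88, 10.09 and 9.99 in mutants, against 10.05, 9.99, 10.13, 10.08 and 10.14 in controls. The groups overlapped there through mutant 4, and the difference was -0.15 ± 0.05 (adjusted p = 0.111, limma), with -0.16 in batch 1 and -0.13 in batch 2. Ptch1 therefore lay lower in mutants by a similar amount at both stages, and at neither did it pass. Its other probe sets, 1439663_at and 1450824_at, did not pass the filter on low values and were at 1.12 to 1.69 and 0.97 to 1.25 at E14.5.

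Hhip, the membrane-bound decoy receptor that binds the ligand and is induced by the pathway, has 4 probe sets, all of which passed the filter. On 1455277_at it read 5.79, 5.84 and 5.30 in E13.5 mutants, against 5.95, 5.85 and 6.07 in E13.5 controls, without overlap but with mutant 2 and control 2 only 0.01 apart (5.841 and 5.852). The difference was -0.31 ± 0.19 (adjusted p = 0.620, limma). Without mutant 3, whose value was the lowest of the E13.5 mutants, it was -0.14. At E14.5 it read 6.02, 6.09, 6.36, 6.50 and 6.23 in mutants, against 6.72, 6.36, 6.82, 6.24 and 6.10 in controls, and the groups overlapped. The difference was -0.21 ± 0.14 (adjusted p = 0.497, limma), with -0.48 in batch 1 and -0.03 in batch 2, and without controls 1 and 3, its highest values, it was 0.015. On 1437933_at the differences were -0.41 ± 0.14 at E13.5 and -0.24 ± 0.11 at E14.5, and on 1438083_at -0.23 ± 0.18 and -0.14 ± 0.14. Probe set 1421426_at gave -0.13 ± 0.11 at E13.5 and -0.21 ± 0.09 at E14.5, but it passed the filter through E13.5 and read 2.50 to 3.15 on all E14.5 arrays, under the filter's level of 4. With every probe set tested on its own over 18136 probe sets, none of the 17 Hedgehog probe sets that passed the filter was called at either stage (smallest adjusted p for Hhip 0.417 at E13.5 and 0.253 at E14.5), where 0.0551% of all probe sets were at E13.5 and 1.29% at E14.5. These probe sets read one gene and are not independent of each other.

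**Figure D3:**
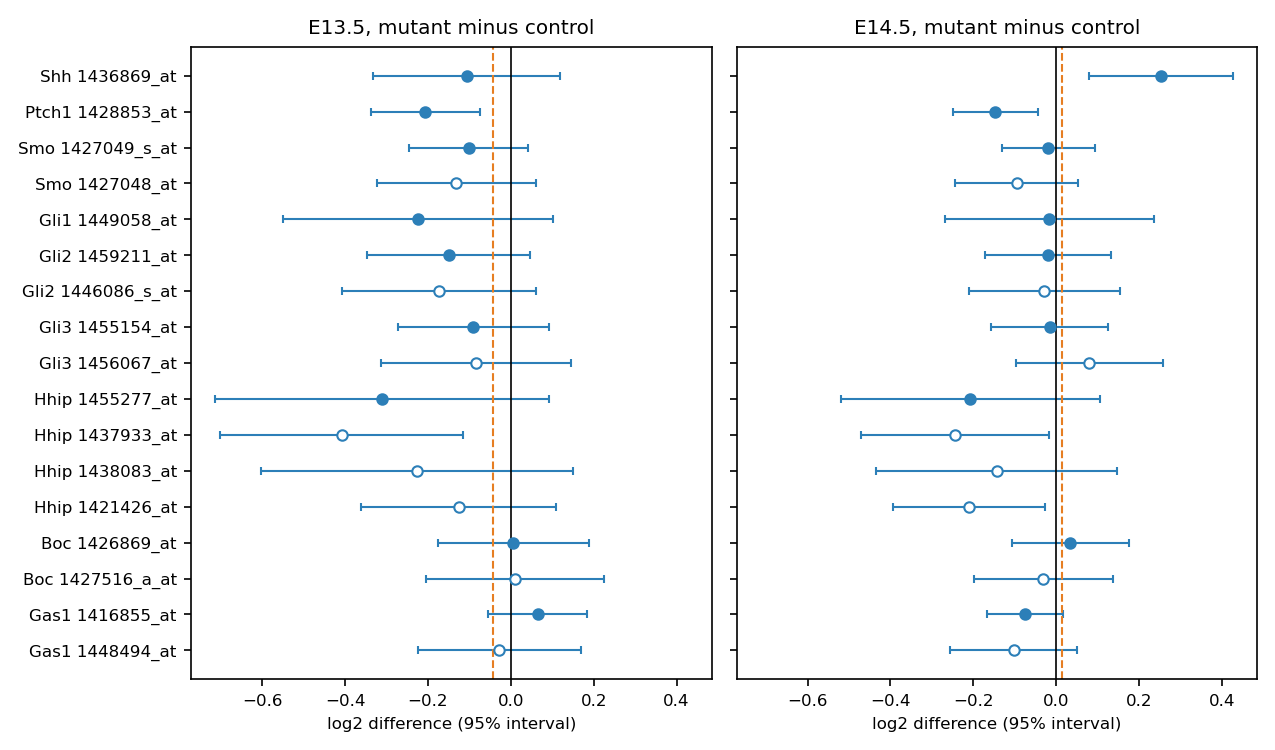
Log2 difference, mutant minus control (horizontal axis), of the 17 Hedgehog probe sets that passed the filter, at E13.5 (left) and E14.5 (right). Points are fitted differences with 95% intervals, filled for the probe set that represents the gene, the solid line is 0 and the dashed line the median of all genes. At E14.5 Shh lies at 0.25 and Ptch1 at -0.15, and the 4 Hhip probe sets lie below 0 at both stages, 1421426_at from values under the filter's level at E14.5.

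Ptch1 and Hhip are the feedback targets among these genes for which a promoter sequence was given, and the DNA before their starts is shown because GLI factors act on such regions. Neither gene passed between genotypes. The 250 bases before the RefSeq start (GRCm38.p6) were as follows, in the direction of the gene. The windows are Ptch1 at chr13:63565736-63565985 and Hhip at chr8:80058009-80058258, both on the minus strand. No base is in capitals, because the GLI consensus GACCACCCA was not found.
Ptch1: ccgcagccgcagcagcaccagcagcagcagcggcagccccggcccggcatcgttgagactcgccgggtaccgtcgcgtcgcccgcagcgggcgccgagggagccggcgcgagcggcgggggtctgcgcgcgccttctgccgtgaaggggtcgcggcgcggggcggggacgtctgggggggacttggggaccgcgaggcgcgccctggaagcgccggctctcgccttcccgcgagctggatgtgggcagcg
Hhip: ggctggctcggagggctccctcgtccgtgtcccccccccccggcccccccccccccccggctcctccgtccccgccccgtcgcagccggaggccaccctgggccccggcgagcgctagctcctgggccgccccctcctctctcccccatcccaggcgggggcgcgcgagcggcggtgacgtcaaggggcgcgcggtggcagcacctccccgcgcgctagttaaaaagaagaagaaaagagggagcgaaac

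RefSeq promoters (250 bases before to 50 after the start) were given for 6 of the 9 genes: Ptch1, Smo, Gli2, Gli3, Hhip and Gas1. GACCACCCA, searched on both strands, was in 0 of these 6, also with up to 1 mismatch, and in 83 of all 32851 promoters, or 0.253%. With up to 1 mismatch it was in 6.74% of all promoters. Both windows were rich in G and C, with 76.3% for Ptch1 and 73.7% for Hhip over 300 bases, where the median of all promoters was 52.7%. That no match was found says only that these letters are not in these windows.

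Smo, the membrane protein that carries the signal past the receptor, read 8.79, 8.71 and 8.65 in E13.5 mutants, against 8.79, 8.83 and 8.84 in E13.5 controls (probe set 1427049_s_at). Its groups overlapped, and the difference was -0.10 ± 0.07 (adjusted p = 0.658, limma). The E14.5 values were 8.18, 8.07, 8.07, 8.15 and 8.12 in mutants, against 8.18, 8.003, 8.11, 8.11 and 8.28 in controls. The mutant values lay inside the control range there, with a difference of -0.02 ± 0.05 and an interval of -0.13 to 0.09. Probe set 1427048_at gave -0.13 ± 0.09 at E13.5 and -0.10 ± 0.07 at E14.5, and 1442215_at did not pass the filter.

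Gli1, a transcriptional activator whose own transcript is the usual readout of the pathway, has a single probe set (1449058_at). It read 6.03, 5.92 and 5.81 in E13.5 mutants, against 6.09, 6.06 and 6.28 in E13.5 controls. The groups did not overlap, and the difference was -0.22 ± 0.15 (adjusted p = 0.674, limma), with an interval of -0.55 to 0.10. Gli1 at E14.5 read 5.04, 5.24, 4.57, 5.28 and 5.06 in mutants, against 5.03, 4.86, 5.06, 5.05 and 5.27 in controls. The groups overlapped almost wholly, mutant 3 being the lowest of all 10 arrays. The difference was -0.02 ± 0.12 with an interval of -0.27 to 0.23, and it was 0.19 in batch 1 and -0.16 in batch 2. Together with Ptch1 and Hhip, Gli1 was 1 of 3 genes of 9 with every E13.5 mutant below every control, an arrangement found in 13.5% of all genes.

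Gli2, the main activator of the early response, read 8.25, 8.15 and 8.05 in E13.5 mutants, against 8.23, 8.34 and 8.34 in E13.5 controls (1459211_at). The groups overlapped through mutant 1, and the difference was -0.15 ± 0.09 (adjusted p = 0.624, limma). At E14.5 its values were 7.56 to 7.94 with a median of 7.74 in mutants, and 7.62 to 7.90 with a median of 7.74 in controls. Gli3, which acts mostly as a repressor when the ligand is absent, read 7.66, 7.62 and 7.48 in E13.5 mutants, against 7.55, 7.77 and 7.72 in E13.5 controls (1455154_at). Its groups overlapped as well, with a difference of -0.09 ± 0.08 (adjusted p = 0.785, limma). At E14.5 its values were 6.87 to 7.21 with a median of 7.08 in mutants, and 7.06 to 7.19 with a median of 7.09 in controls. Both genes had a difference of -0.02 at E14.5 that turned between batches. Gli2 stood at -0.15 in batch 1 and 0.07 in batch 2, and Gli3 at -0.17 in batch 1 and 0.09 in batch 2. The second probe sets gave -0.17 ± 0.11 at E13.5 and -0.03 ± 0.08 at E14.5 for Gli2 (1446086_s_at), and -0.08 ± 0.11 and 0.08 ± 0.08 for Gli3 (1456067_at). Gli3 probe set 1450525_at did not pass the filter.

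The co-receptors Boc and Gas1, membrane proteins that help Ptch1 bind the ligand, were the members with E13.5 differences above 0, by amounts within their error. Boc read 6.01, 5.93 and 5.87 in E13.5 mutants, against 5.71, 6.08 and 6.00 in E13.5 controls (1426869_at), a difference of 0.0061 ± 0.084 (adjusted p = 0.991, limma). It ranged from -0.10 without control 1 to 0.10 with quantile normalization. Its sign turned under 5 of 30 alternatives, but many of these alternatives change only E14.5 arrays or the variance. Those cannot move an E13.5 difference, so the count does not measure how stable the sign is. At E14.5 it spanned 5.42 to 5.63 in mutants and 5.43 to 5.61 in controls, and the difference was 0.03 ± 0.06. Gas1 read 10.79, 10.59 and 10.77 in E13.5 mutants, against 10.67, 10.64 and 10.64 in E13.5 controls (1416855_at), and the difference was 0.06 ± 0.05 (adjusted p = 0.750, limma). Gas1 values at E14.5 were 10.12, 10.11, 10.12, 10.08 and 10.09 in mutants, against 10.20, 10.23, 10.15, 10.12 and 10.20 in controls. The mutants lay at the low end, overlapping the controls through control 4, with a difference of -0.08 ± 0.04 (adjusted p = 0.379, limma). On brightest probe sets, Gas1 was the only one of the 9 whose effect was more negative at E14.5 than at E13.5, by -0.14 ± 0.07 (adjusted p = 0.497, limma). Of all genes, 69.8% lay above 0 in this comparison. Boc 1427516_a_at (-0.04 ± 0.13) and Hhip 1421426_at (-0.08 ± 0.14, from E14.5 values under the filter's level) lay below 0 as well. Probe sets 1427516_a_at (Boc) and 1448494_at (Gas1) gave 0.01 and -0.03 at E13.5, and -0.03 and -0.10 at E14.5, and 1427517_at (Boc) and 1456322_at (Gas1) did not pass the filter.

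Single arrays moved the E13.5 values in both directions. Mutant 3 was the lowest of the 3 mutants for Shh, Ptch1, Smo, Gli1, Gli2, Gli3, Hhip and Boc, all but Gas1. Without it the E13.5 difference was -0.0025 for Shh, -0.07 for Smo, -0.10 for Gli2, -0.04 for Gli3 and -0.14 for Hhip, and these 5 genes kept their sign. Other single arrays moved values by over 1.5 times too. The difference of Shh was -0.20 without control 2, -0.17 without mutant 1 and -0.03 without control 3. That of Gli3 was -0.16 without control 1 and -0.04 without control 2. That of Gas1 was 0.13 without mutant 2, 0.03 without mutant 1 and 0.04 without mutant 3. Marker lists also stood at different levels at E13.5, though none of their genes passed. The mean of the 10 palatal mesenchyme markers was 8.66 to 8.68 in mutants and 8.75 to 8.88 in controls, with 10 of 10 below 0 and a median difference of -0.11, as for the 9 Hedgehog genes. The mean of the 10 annotated skeletal muscle markers was 6.25 to 6.56 in mutants and 5.69 to 5.95 in controls. Of these markers 9 passed the filter, with 9 of 9 above 0. The mean of 6 bone markers was 4.57 to 5.11 in mutants and 5.37 to 5.67 in controls, with 6 of 6 below 0. That of the 8 annotated cartilage markers, 6 of which passed the filter, was 5.67 to 5.93 in mutants and 4.96 to 5.73 in controls, which overlapped. Their part in the Hedgehog values was not tested.

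Among the other genes of the pathway, a single gene fell. A list of 43 further names, from ligand release to mesenchymal genes downstream of Hedgehog in the mouse palate, had 39 names with a probe set in the annotation and 31 genes that passed the filter. At E13.5, 0 of 31 passed the test, where 0.099% of all genes did. There 23 of the 31 lay below 0 with a median of -0.05, where 7612 of the 11116 genes did with a median of -0.04. At E14.5, 1 of 31 fell, where 1.15% of all genes did, and 30 did not pass. In the downstream group, 8 of 9 genes lay below 0 at E13.5 with a median of -0.14, where 7612 of the 11116 genes did with a median of -0.04. At E14.5, 5 of 9 did with a median of -0.02, where 4890 of the 11116 genes did with a median of 0.01. The ligands Ihh and Dhh did not pass the filter.

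The gene that fell was Foxf1, a forkhead factor of the mesenchyme that depends on Hedgehog signalling in the mouse. At E13.5 it read 8.10, 7.94 and 8.09 in mutants, against 8.42, 8.27 and 8.65 in controls (1434939_at), without overlap. The difference of -0.41 ± 0.09 did not pass (adjusted p = 0.166, limma). Foxf1 at E14.5 read 6.93, 7.06, 7.08, 7.06 and 7.16 in mutants, against 7.41, 7.29, 7.48, 7.26 and 7.53 in controls, again without overlap. The difference was -0.34 ± 0.07, or 0.792 times the control level (adjusted p = 0.0278, limma), with -0.35 in batch 1 and -0.32 in batch 2. A second probe set of Foxf1 (1423013_at) gave -0.21 ± 0.12 at E13.5. It read 3.27 to 3.77 on all E14.5 arrays, under the filter's level of 4, where its difference was 0.05 ± 0.09, and the mean over probe sets did not pass at E14.5 (-0.14, adjusted p = 0.181, limma). The call at E14.5 held under 19 of 31 alternatives and was lost, among others, without mutant 1 or 4 or control 1, 2, 3 or 5. Of 6 bone markers, 4 fell in E14.5 mutants and 6 of 6 lay below 0 (median -0.71), with list means of 7.46 to 8.27 in mutants and 8.18 to 8.70 in controls. None of the 10 palatal mesenchyme markers passed there, with list means of 7.96 to 8.13 in mutants and 7.96 to 8.11 in controls. The part of the bone and epithelium markers in the Foxf1 value was not tested.

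Other pathway genes with small p-values did not pass. At E13.5 these were Fgf10, a mesenchymal growth factor that acts on the epithelium, at -0.31 ± 0.09 (adjusted p = 0.292, limma), the palate factor Osr2 at -0.32 ± 0.09 (adjusted p = 0.319) and Scube1 at 0.30 ± 0.09 (adjusted p = 0.363). Fgf10 (4.05 to 4.53) and Scube1 (4.13 to 4.71) read little above the filter's level of 4 on the E13.5 arrays. At E14.5 they were the ligand gene Bmp2 at -0.33 ± 0.12 (adjusted p = 0.176, limma) and Gpc3, a proteoglycan that binds Hedgehog ligand, at -0.18 ± 0.07 (adjusted p = 0.236). Evc, a ciliary protein that binds Smoothened, had a small p as well (0.25 ± 0.08, adjusted p = 0.134, limma, and 0.0122 without control 5). It passed the filter through E13.5 and read 2.85 to 3.41 on all E14.5 arrays, under the filter's level, so nothing is read from that difference. The effect at E14.5 minus that at E13.5 was 0.48 ± 0.12 for Osr2 and 0.22 ± 0.07 for the cyclin gene Ccnd2. It was -0.38 ± 0.12 for Scube1 and 0.39 ± 0.13 for Evc, both from E14.5 values under the filter's level (at most 1.80 for Scube1), and none of the 31 passed (the smallest adjusted p, limma, was 0.151, for Osr2).

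**Figure D4:**
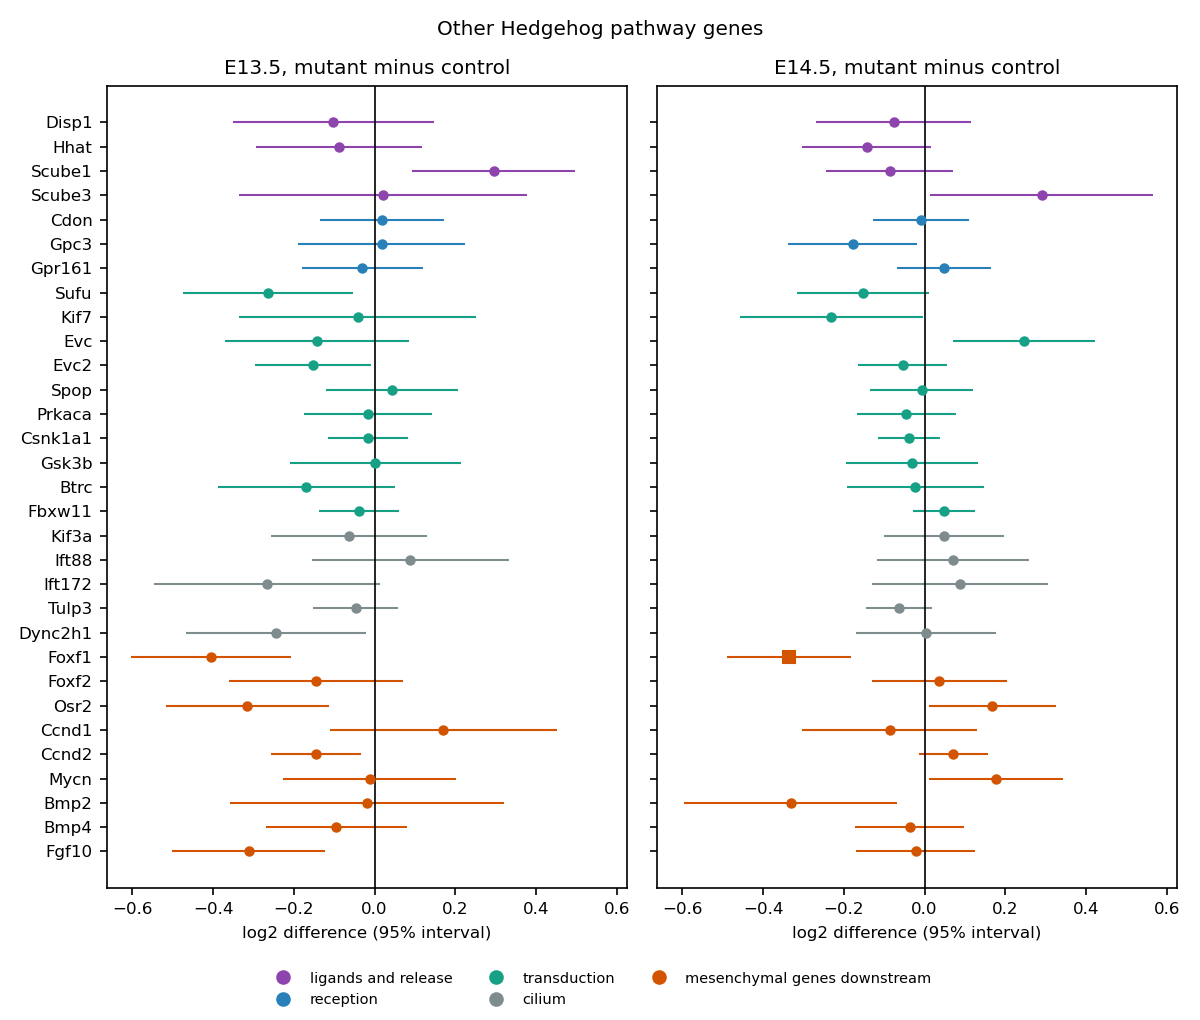
Log2 difference, mutant minus control (horizontal axis), of the 31 other pathway genes that passed the filter, at E13.5 (left) and E14.5 (right), grouped by role. Points are fitted differences with 95% intervals, coloured by role, and the square marks the gene that passed the test, Foxf1, at -0.34 at E14.5.

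Between stages most genes of the array were lower at E14.5, and the Hedgehog genes are read against that shift. The E13.5 arrays bear no batch label and share none with the E14.5 arrays. A change with development and a difference in array processing between the stages therefore cannot be told apart. The p-values below speak only of the spread within stages. Of all genes, 85.4% passed between stages in mutants and 86.5% in controls, with medians of -0.56 in mutants and -0.63 in controls. Among the 9 genes 8 passed in each genotype, 1 higher (Hhip) and 7 lower, where 13.4% of all genes were higher and 72% lower in mutants, and 11.6% higher and 74.9% lower in controls. The 9 genes had medians of -0.45 in mutants and -0.54 in controls. Hhip was higher at E14.5 by 0.59 ± 0.17 in mutants (adjusted p = 0.00409, limma) and by 0.49 ± 0.17 in controls (adjusted p = 0.0133, limma). Its probe sets disagreed in direction. Probe set 1437933_at stood at -0.21 ± 0.12 in mutants and -0.37 ± 0.12 in controls, and 1438083_at at 0.19 ± 0.16 in mutants and 0.10 ± 0.16 in controls. Probe set 1421426_at was lower at E14.5 (-1.34 ± 0.10 in mutants and -1.25 ± 0.10 in controls). It passed the filter through E13.5 alone, with E14.5 values under the filter's level, so its fall was fixed by the filter. Ptch1 differed by 0.11 ± 0.05 in mutants and 0.05 ± 0.05 in controls and did not pass, while 84.8% of all genes had a lower stage difference in mutants and 84.5% in controls. By brightest probe sets Gli1 was lower by the most of the 9, with -0.88 ± 0.14 in mutants and -1.09 ± 0.14 in controls, yet 36.2% of all genes in mutants and 32.3% in controls had a lower stage difference still. Other probe sets gave larger sizes, with -1.87 ± 0.09 in mutants and -1.83 ± 0.09 in controls for Boc 1427516_a_at, and -0.96 ± 0.10 in mutants and -1.12 ± 0.10 in controls for Gli3 1456067_at. Shh differed by -0.45 ± 0.09 in mutants and -0.81 ± 0.09 in controls. Of the 31 other pathway genes, 24 were lower and 3 (Cdon, Csnk1a1 and Ccnd1) higher at E14.5 in each genotype. Scube1 was lower by the most in mutants (-2.99, and -2.61 in controls) and Fgf10 in controls (-2.83, and -2.54 in mutants). Both are among 7 of the 31 with E14.5 means under the filter's level of 4. These 7, counted among the 24, passed the filter through E13.5 alone. A fall was thus fixed by the filter for them, and nothing is read from its direction or size.

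These stage values depend on the scale. After quantile normalization the medians of all genes were -0.02 in mutants and -0.04 in controls, and Gli1 no longer passed (-0.06 in mutants and -0.24 in controls), nor did Shh (-0.21) and Gli2 (-0.17) in mutants. Boc turned to 0.37 in mutants and 0.45 in controls under it. Hhip stood higher under quantile normalization, at 1.39 in mutants and 1.25 in controls, and passed in both. With the mean over probe sets, Ptch1 turned to -1.14 in mutants and -1.21 in controls, and Hhip to -0.19 in mutants and -0.26 in controls. That mean takes in probe sets that did not pass the filter. For Ptch1 these were 1439663_at (3.12 at E13.5 and 1.46 at E14.5 in mutants) and 1450824_at (2.97 at E13.5 and 1.11 at E14.5 in mutants). No fall of Ptch1 is read from it. The Hhip call in controls was also lost without E13.5 control 2 (0.44), without E14.5 controls 1 and 3 (0.27) and with a term for sex (0.32).

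**Figure D5:**
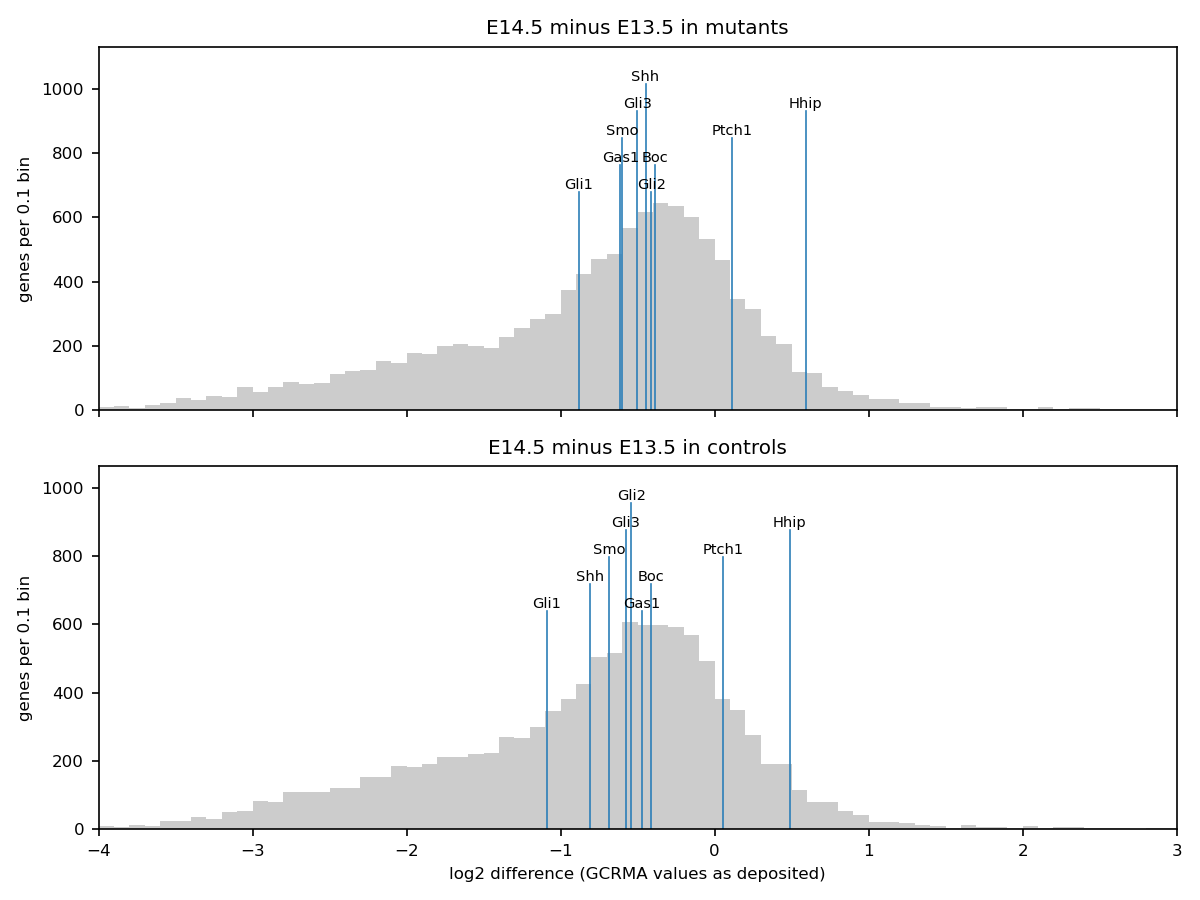
Number of genes (vertical axis, per bin of log2 difference) by E14.5 minus E13.5 log2 difference (horizontal axis), in mutants (top) and in controls (bottom). Grey bars are all genes tested, and vertical lines mark the 9 Hedgehog genes, their heights differing only to keep the names apart. Hhip, at 0.59 in mutants and 0.49 in controls, and Ptch1, at 0.11 in mutants and 0.05 in controls, lie above 0, and the other 7 genes lie below it.

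Group means had the following orders. Shh was highest in E13.5 controls (8.32), then E13.5 mutants (8.21), E14.5 mutants (7.76) and E14.5 controls (7.51), and the pair at E13.5 did not differ beyond its spread. Ptch1 ran from E14.5 controls (10.08) through E13.5 controls (10.03) and E14.5 mutants (9.93) to E13.5 mutants (9.82), and the ranges of neighbours overlapped. For Smo, Gli1, Gli2 and Gli3 both E13.5 groups lay above both E14.5 groups, and the genotypes within a stage were neighbours that did not pass the test.

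After the group and batch means were taken out, the 9 genes did not vary as one across the 16 arrays. Pearson's r was 0.80 for Gli2 with Gli3, 0.79 for Ptch1 with Gli2, 0.78 for Ptch1 with Gli1 and 0.74 for Gli2 with Hhip, but -0.0185 for Gli1 with Hhip. Gas1 had no r above 0.073 with another of the 9. The genes most like Ptch1 by this measure, over all genes, were Cep192 (0.890), Pard3b (0.886), Col6a3 (0.885), Anapc1 (0.875) and H3f3b (0.849). Those most like Gli1 were B3glct (0.900), Dph6 (0.889), Ap1b1 (0.885), Capza2 (0.884) and Wee1 (0.875). The values share arrays and normalization, and these correlations are given as a description.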

How the data were processed

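RNA of palate tissue was measured on 16 Affymetrix arrays, and the authors deposited log2 values, with GCRMA as the tool per the submitters' processing notes. Its version, and whether both stages were normalized together, is not given. The labels' protocols name tissue, while the series text speaks of primary cells. Probe sets annotated to 1 gene were used (34958, with 932 given to several genes left out), a gene was its probe set with the highest mean, and features needed a log2 value of 4 or more on at least 3 arrays. limma 3.58.1 (R 4.3.3) fitted the 4 groups and an E14.5 batch term, with Benjamini-Hochberg adjustment over 11116 genes and a threshold of 0.05. On simulated data of the same size, 43.3% of 1.25-fold and 76.1% of 1.5-fold changes were recovered at E13.5, and 58.2% of 1.25-fold and 92.5% of 1.5-fold changes at E14.5. The number of arrays limits the precision. Of the other pathway genes, those called and the 4 with the smallest p per comparison were to be named. Between stages, where most were called, counts and a few genes are given instead. Likeness named the 5 genes with the highest r to Ptch1 and to Gli1, leaving out RIKEN clones and predicted genes. The members and lists were chosen with earlier results of these data known. Alternatives covered filter, probe sets, scaling, variance model, batch, sex, replicate block and left-out arrays. Promoter sequences are from RefSeq (GRCm38.p6).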

Additional observations from a re-analysis of the deposited data

Results flagged for a closer look

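In 3 of 34 groups of 5 arrays examined, one array of a Hedgehog probe set lay far from the other 4 relative to the range of its group, where chance gives about 5%. Boc probe set 1427516_a_at read 4.94 in E14.5 mutant 3, and the other mutants read 4.58 to 4.67. Hhip probe set 1421426_at read 3.15 in E14.5 control 3, and the other controls read 2.69 to 2.81. Gli3 probe set 1455154_at read 7.19 in E14.5 control 1, and the other controls read 7.06 to 7.09.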

How the results depend on the processing

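Over 31 alternatives, 16 of them leaving out 1 array each, 0 of the 9 Hedgehog genes passed between genotypes at E13.5 or at E14.5, and 0 in the comparison of effects (30 alternatives). Of the 31 other pathway genes the E14.5 count of 1 (Foxf1) became 0 under 11 alternatives and 2 without E14.5 control 5, where Evc was one of them, from values under the filter's level, and Foxf1 was not. Over all genes 11 were called at E13.5 (3 to 85 under alternatives, the most with array weights) and 292 at E14.5 (27 with batch 1 alone to 371 without the batch term). Between stages 6 to 9 passed in mutants and 7 to 8 in controls. With the mean over probe sets the stage difference lay below 0 for Ptch1 (-1.14 in mutants, -1.21 in controls). Its mean there takes in probe sets that did not pass the filter. The stage difference reversed for Hhip under the same setting (-0.19 in mutants, -0.26 in controls), and with quantile normalization for Boc (0.37 in mutants, 0.45 in controls). What moved Hhip and Boc was not tested. The E14.5 difference of Shh ranged from 0.16 to 0.39 and that of Ptch1 from -0.18 to -0.03. Same-numbered mutants and controls had correlations between -0.169 and 0.166 at E13.5, and between -0.492 and 0.003 at E14.5. At E14.5, 3 or 4 other controls were more like each mutant than its same-numbered control. Whether a shared number marks a pairing is not settled by these values. With the replicate as a block, 0 of 9 passed between genotypes at each stage and 8 of 9 between stages. Low signal limits the probe sets that did not pass the filter, 7 of 24.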
